A study of Mus musculus with 24 samples.

Results

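AP-1 is the transcription factor formed when a FOS subunit pairs with a JUN subunit, or when JUN subunits pair with each other, and immediate early genes are those that cells transcribe within minutes of a stimulus without first making new protein. The 10 genes described here were given by name. They are the FOS subunit genes Fos, Fosb and Fosl2, the JUN subunit genes Jun, Junb and Jund, and the immediate early genes Ier2, Ier3, Dusp1 and Zfp36. Each symbol matched 1 Ensembl identifier in the count table, which holds 56884 genes. All 10 passed the filter on low counts, and 13679 genes were tested in all.

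The cells were bone marrow-derived macrophages (BMDMs) of wild-type C57BL/6J mice, and their mRNA was sequenced. They are primary cells grown from marrow of the femur and tibia in macrophage colony-stimulating factor (M-CSF), and every group shared that growth factor. The donors were 4 female mice of 9 weeks, numbered 1, 2, 4 and 5, and each mouse gave 1 culture to each of 6 groups, so that there were 24 libraries. Naive BMDMs received no cytokine for 24 h. IL-4/IL-13 BMDMs received 20 ng/ml of each cytokine for 24 h. The other 4 groups received the same cytokines after 1 h of pretreatment with an inhibitor, which stayed in the medium. Tunicamycin, at 5 μg/ml, blocks N-linked glycosylation and so stresses the endoplasmic reticulum. Sal003, at 10 μM, inhibits the dephosphorylation of the translation factor eIF2α. Oligomycin, at 1 μM, inhibits the mitochondrial ATP synthase. One of the oligomycin groups also received ISRIB at 1 μM, which blunts the integrated stress response downstream of eIF2α phosphorylation. The labels disagree on which one: the library names put ISRIB in the libraries called Oli_ISR, and the sample titles put it in the libraries called Oligo. The groups are therefore called the Oligo and the Oli_ISR libraries, and no direction is given for ISRIB. Every group holds RNA at a single time point of 24 h, long after the first minutes of induction.

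FOS proteins cannot bind DNA as dimers with themselves and need a JUN partner, whereas JUN proteins can pair with each other. The Fos promoter is switched on by serum response factor and CREB when MAP kinases are active, and its mRNA is removed quickly. DUSP1 is a phosphatase that removes the activating phosphates from p38 and JNK kinases. ZFP36, also called tristetraprolin, binds AU-rich elements and speeds the decay of cytokine mRNAs. IER2 and IER3 are small proteins of the early response, and IER3 is best known for its part in cell survival.

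The control regions of 4 of the genes are shown because they hold the letters by which immediate early genes are classically recognised. RefSeq promoter windows, which run from 250 bases before to 50 bases after each RefSeq transcript start, were found for Fos, Fosb, Fosl2, Jun, Junb, Jund, Ier3, Dusp1 and Zfp36. Each was placed on GRCm39 by exact match. The RefSeq start of Jund lay at -1210 bases from the annotated gene start, so that its window ended before that start. For Fosl2, Zfp36 and Dusp1 the RefSeq start lay inside the annotated gene, at 1109, 1057 and 53656 bases from its start. Capitals mark the matches, and positions count from the RefSeq start base as 0. The Fos window is chr12:85520414-85520713 on the plus strand, and its capitals mark TGACGT, the core of a cAMP response element, at position -66. The second Fos sequence, chr12:85520330-85520389, lies farther upstream on the same strand, and its capitals mark a CArG box, the element bound by serum response factor, at position -309. The Jun window is chr4:94940410-94940709 on the minus strand, with TGACATCA, a variant AP-1 and CREB site, at position -45. The Dusp1 window is chr17:26727397-26727696 on the minus strand, with a full cAMP response element, TGACGTCA, at position -143 and the core TGACGT at position -191. The Zfp36 window is chr7:28078604-28078903 on the minus strand, with a CArG box at position -58.
Fos: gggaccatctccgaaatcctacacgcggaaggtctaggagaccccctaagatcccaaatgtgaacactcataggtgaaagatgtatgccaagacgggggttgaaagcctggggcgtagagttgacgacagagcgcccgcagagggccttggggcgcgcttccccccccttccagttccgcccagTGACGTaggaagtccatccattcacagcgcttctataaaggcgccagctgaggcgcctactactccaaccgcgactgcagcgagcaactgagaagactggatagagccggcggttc
Fos upstream: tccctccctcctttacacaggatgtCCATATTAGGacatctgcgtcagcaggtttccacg
Jun: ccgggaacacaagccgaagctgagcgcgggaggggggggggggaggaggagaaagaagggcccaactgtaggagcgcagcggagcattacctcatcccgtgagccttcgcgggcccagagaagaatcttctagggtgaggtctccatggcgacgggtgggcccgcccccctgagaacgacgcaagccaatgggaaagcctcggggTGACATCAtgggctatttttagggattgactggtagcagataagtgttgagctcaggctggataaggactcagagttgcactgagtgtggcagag
Dusp1: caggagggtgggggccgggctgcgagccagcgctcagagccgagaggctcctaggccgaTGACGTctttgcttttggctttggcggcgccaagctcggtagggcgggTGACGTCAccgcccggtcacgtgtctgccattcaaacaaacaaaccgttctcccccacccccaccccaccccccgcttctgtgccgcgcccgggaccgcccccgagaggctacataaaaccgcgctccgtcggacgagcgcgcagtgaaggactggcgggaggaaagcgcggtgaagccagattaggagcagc
Zfp36: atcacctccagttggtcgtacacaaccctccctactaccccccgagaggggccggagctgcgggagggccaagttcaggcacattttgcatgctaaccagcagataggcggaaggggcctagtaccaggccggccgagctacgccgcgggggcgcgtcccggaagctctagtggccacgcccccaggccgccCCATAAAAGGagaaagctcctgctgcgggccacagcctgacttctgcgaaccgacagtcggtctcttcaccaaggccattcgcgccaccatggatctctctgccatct

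Both strands of all 32851 RefSeq promoter windows were searched for 7 motifs. TGACGT stood in 7.51% of them and in the windows of Fos and Dusp1. The full TGACGTCA, which contains that core, stood in 1.79% of windows and in that of Dusp1. A CArG box stood in 1.63% of windows and in that of Zfp36, but not in that of Fos. In the 300 bases where Fos holds its upstream box, 1.68% of 21757 protein-coding genes hold such a box. That upstream stretch is reported for Fos alone among the genes described here. Whether the others hold a CArG box there is not given, so the box is not shown to be particular to Fos. TGACATCA stood in 3.62% of windows and in that of Jun. The AP-1 site TGANTCA (7.81% of windows), the CHOP-ATF4 core TGATGNAA (3.97%) and the STAT palindrome, TTC and GAA with 4 bases between them (6.95%), stood in 0 of the 9 windows. The Jund window does not reach the annotated Jund start, so the absence of a match in it does not cover that start. A match describes letters in a window and is not a site shown to be bound. The letters TGACGT and TGACATCA were chosen after the windows had been read.

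The libraries held between 16238727 and 26725278 reads assigned to genes, and levels are given as CPM, the counts as a share of a TMM-scaled library size. All 8 macrophage markers searched, from Csf1r to Cd14, were detected in every group, and the 4 erythroid markers stayed at 3 counts or fewer in every library. Summed neutrophil markers had a median of 40.6 CPM in IL-4/IL-13 libraries (24.1 to 44.4) and of 0.212 CPM with tunicamycin (0.103 to 0.286), where 7 of 8 markers were at 3 counts or fewer in every library. With Sal003, in the Oligo and in the Oli_ISR libraries their medians were 7.01, 3.36 (2.73 to 4.71) and 21.6 CPM (18.8 to 24.7). Summed dendritic cell markers had medians of 9.56 CPM with IL-4/IL-13 and 1.95 CPM with tunicamycin, and 3.28, 2.56 and 2.71 CPM in the other inhibitor groups. Summed stromal markers ranged from 15.3 to 86.9 CPM with IL-4/IL-13 and from 3.57 to 24.6 CPM with tunicamycin, with medians of 50.8 and 17.2 CPM, and of 30.1, 29 and 28.8 CPM in the other inhibitor groups. The part of these other cells in the results was not tested, and in bulk RNA fewer cells of a type and less RNA per cell cannot be told apart. Hspa5, the chaperone BiP, averaged 1073 CPM with IL-4/IL-13 and 12367 CPM with tunicamycin, and Atf4, the central factor of the integrated stress response, 136 and 1094 CPM. In the Oligo and Oli_ISR libraries Atf4 averaged 704 and 478 CPM, and Arg1, the gene of arginase, 148 and 295 CPM. No group was assigned to ISRIB from these levels.

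IL-4/IL-13 changed 9 of the 10 genes and did so in both directions. Fosl2, Ier3, Jund, Jun and Junb rose, while Fosb, Dusp1, Fos and Ier2 fell, and Zfp36 was not called. A gene is called where edgeR's quasi-likelihood test over all genes gives a Benjamini-Hochberg adjusted p under 0.05. Of all genes tested, 30.1% were called higher and 30.4% lower. For a set of 10 genes, 5 higher and 4 lower are both little above those shares. At 2.5-fold or more, 2 genes rose (background 5.39%) and 1 fell (6.08%). The gene that fell, Fosb, was under 2.5-fold without mouse 4 (log2 fold change -1.31).

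Tunicamycin on top of the cytokines lowered 9 of the 10 genes and raised 0. Fosb, at a log2 fold change of -0.79, was the exception. By edgeR's quasi-likelihood test 37.6% of all genes were called lower and 38.7% higher. The median log2 fold change was -1.24 over the 10 genes and 0.01 over all genes tested. Of the 10, 5 fell by at least 2.5-fold, namely Fos, Fosl2, Jun, Zfp36 and Jund, against 14% of all genes. Jund, at 2.57-fold, was under 2.5-fold without mouse 5 (log2 fold change -1.30). At least 2.5-fold higher were 0 of the 10 and 8.56% of all genes. For these 9 genes every tunicamycin library lay below every IL-4/IL-13 library, a pattern that 36.1% of all genes showed.

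The other inhibitors changed fewer of the genes, and most of the 10 by less than tunicamycin did, with Dusp1 in the Oligo libraries (0.93 against -0.35) and Ier3 in the Oli_ISR libraries (-0.49 against -0.41) as exceptions among the called genes. Sal003 lowered 5 genes and raised 1, with 24.6% of all genes called lower and 25.9% higher. The Oligo libraries had 4 genes lower and 1 higher than IL-4/IL-13 libraries, with 32.2% of all genes lower and 34% higher. The Oli_ISR libraries had 5 lower and 1 higher, with 26.4% and 27.9% as the shares over all genes. The 4 of 10 lower in the Oligo libraries are near the share of all genes, but this count was 6 with RLE size factors, with a stricter filter of at least 10 counts in every library or with DESeq2, and 7 when only those groups were fitted. None of the 10 passed 2.5-fold in these 3 comparisons, where 2.68% of all genes were higher and 5.04% lower with Sal003, 4.79% and 7.96% in the Oligo libraries, and 2.94% and 5.02% in the Oli_ISR libraries. Median log2 fold changes over the 10 were -0.38, -0.17 and -0.20, with medians over all genes of 0.00, 0.01 and 0.00. Fos, Fosl2 and Jund were lower in all 4 inhibitor groups, that is 3 of 10 genes against 14.6% of all genes. The 4 comparisons share the same IL-4/IL-13 libraries.

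Between the oligomycin groups, the Oligo libraries held less Fos, Jun and Jund and more Dusp1 and Ier3 than the Oli_ISR libraries. By edgeR's quasi-likelihood test 21.3% of all genes were lower and 19.9% higher. The counts of 3 lower and 2 higher among the 10 are therefore near the shares over all genes. Leaving out single mice ended 3 of these 5 calls. The Fos difference lost its call without mouse 5 (log2 fold change -0.29, adjusted p = 0.079), the Jund difference without mouse 1 (-0.27, adjusted p = 0.063), and the Ier3 difference without mouse 1 (0.27, adjusted p = 0.061) or mouse 4 (0.25, adjusted p = 0.12). The Dusp1 and Jun differences kept their calls without any 1 mouse.

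**Figure D1:**
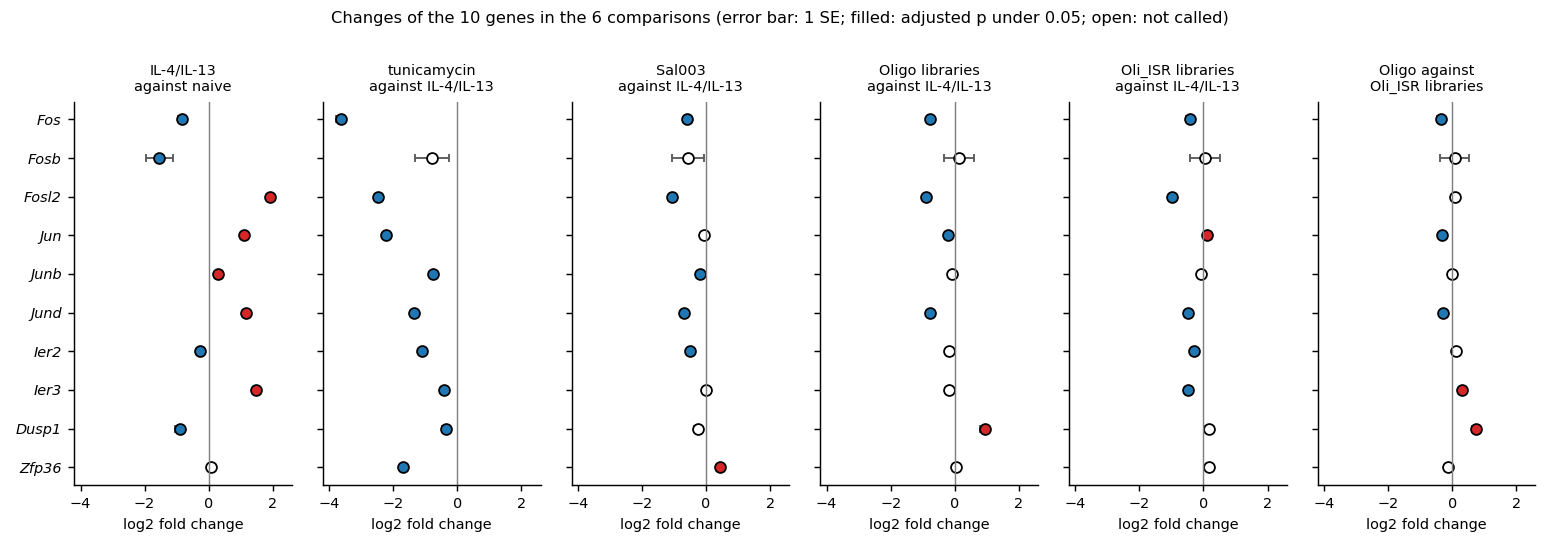
Log2 fold change of each of the 10 genes (x axis) in the 6 comparisons (panels), from edgeR. Error bars are 1 SE, filled points passed an adjusted p of 0.05, red is higher and blue is lower. Under tunicamycin 9 points are filled and lie left of 0, with Fos farthest at -3.65, and the wide bars belong to Fosb.

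Fos, the founding FOS subunit gene (ENSMUSG00000021250, chr12:85520658-85524047), was highest in naive cells and lowest with tunicamycin. Naive libraries held 223, 180, 187 and 230 CPM in mice 1, 2, 4 and 5, and IL-4/IL-13 libraries 122, 111, 99.6 and 126 CPM. All 4 IL-4/IL-13 values lay below all naive values, a log2 fold change of -0.84 (SE 0.11, adjusted p = 3.1e-07). With tunicamycin the same mice held 10.6, 7.9, 8.51 and 9.37 CPM, from 150 to 207 reads each. That was 12.6-fold lower than with cytokines alone (log2 fold change -3.65, SE 0.14, adjusted p = 4.4e-18), the largest change of any of the 10 genes in any comparison.

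The other inhibitors left Fos between these ends. Sal003 libraries held 84, 75.8, 64.9 and 80 CPM, Oligo libraries 73.1, 70.7, 53 and 71 CPM, and Oli_ISR libraries 81.1, 89.2, 71.8 and 100 CPM. Sal003 lowered Fos by a log2 fold change of -0.59 (SE 0.11, adjusted p = 9.5e-05). The Oligo libraries differed from IL-4/IL-13 libraries by -0.77 (SE 0.11, adjusted p = 1.3e-06) and the Oli_ISR libraries by -0.42 (SE 0.11, adjusted p = 0.0026). In the last comparison the groups overlapped, because 1 Oli_ISR library at 100 CPM just exceeded an IL-4/IL-13 library at 99.6 CPM, while each mouse on its own showed less Fos. In order of level, tunicamycin stood apart at the bottom and naive at the top, and the Oligo, Sal003 and Oli_ISR libraries overlapped with their neighbours.

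Fosb, whose product is a FOS subunit found mainly after strong stimulation (ENSMUSG00000003545, chr7:19036621-19043976), was a scarce transcript in every group. It averaged 2.55 CPM in naive cells and between 0.49 and 0.95 CPM in the others, with 2 to 41 reads per library outside the naive group. The naive libraries held 2.64, 2.16, 2.31 and 3.08 CPM, above every other library. IL-4/IL-13 lowered it by a log2 fold change of -1.55 (SE 0.42, adjusted p = 0.0024). No inhibitor group was called: the log2 fold changes against IL-4/IL-13 ranged from -0.79 with tunicamycin (adjusted p = 0.17) to 0.13 in the Oligo libraries (adjusted p = 0.82), with SEs from 0.47 to 0.52. With tunicamycin the difference within a mouse ranged from -0.95 to -0.65, in 4 of 4 mice.

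Fosl2, which encodes the FOS subunit FRA-2 (ENSMUSG00000029135, chr5:32292707-32315186), moved opposite to Fos when the cytokines were added. Naive libraries held 65.8, 57, 64.8 and 65.1 CPM, and IL-4/IL-13 libraries 235, 243, 229 and 247 CPM. This was the largest rise among the 10 genes, 3.77-fold, with a log2 fold change of 1.92 (SE 0.07, adjusted p = 6.2e-18). Tunicamycin brought Fosl2 to 42.8, 41.1, 44.1 and 44.3 CPM, below every naive library (log2 fold change -2.47 against IL-4/IL-13, SE 0.07, adjusted p = 1.5e-20). Sal003 libraries held 120, 115, 122 and 103 CPM, Oligo libraries 130, 135, 129 and 118 CPM, and Oli_ISR libraries 138, 121, 109 and 113 CPM. These 3 groups overlapped each other and lay between naive and IL-4/IL-13 libraries, with log2 fold changes against IL-4/IL-13 of -1.05, -0.90 and -0.99 (SE 0.06 each) and adjusted p of 1.2e-12, 6.6e-12 and 2.8e-12.

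Jun, the gene of the AP-1 subunit c-JUN (ENSMUSG00000052684, chr4:94937271-94940459), rose with IL-4/IL-13 and fell below its naive level with tunicamycin. It was measured with little spread: naive libraries held 88.8, 83.6, 88.6 and 93.9 CPM, IL-4/IL-13 libraries 188, 194, 190 and 196 CPM, and tunicamycin libraries 39.2, 39.1, 40.8 and 43.2 CPM. None of these groups overlapped. The rise was 2.16-fold (log2 fold change 1.11, SE 0.04, adjusted p = 2.5e-17) and the fall 4.73-fold (-2.24, SE 0.04, adjusted p = 1.9e-23). The other inhibitors left Jun near its IL-4/IL-13 level, with 177 to 186 CPM under Sal003, 162 to 176 CPM in the Oligo libraries and 198 to 212 CPM in the Oli_ISR libraries. The Oligo libraries lay below IL-4/IL-13 libraries (log2 fold change -0.20, SE 0.04, adjusted p = 1.2e-04) and below the Oli_ISR libraries (-0.31, SE 0.04, adjusted p = 1.2e-06). The Oli_ISR libraries lay above IL-4/IL-13 libraries by 0.11 (SE 0.04, adjusted p = 0.03), a call that 9 of 11 alternative settings ended, with adjusted p from 0.052 to 0.23. Under Sal003 the value was -0.07 (adjusted p = 0.15), which 3 of 11 settings called, DESeq2 among them (-0.09, adjusted p = 0.039). Up to 16.6% of the exon bases of Jun are shared with the antisense gene Junos, which held 7 to 75 reads per library. Whether reads were counted by strand is not given in the sources used here.

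Junb, whose product often restrains c-JUN (ENSMUSG00000052837, chr8:85701113-85705359), varied least among the 10 genes. Its group means ran from 162 CPM with tunicamycin to 274 CPM with IL-4/IL-13, with 224 CPM in naive cells. The cytokines raised it by a log2 fold change of 0.29 (SE 0.05, adjusted p = 2.3e-05), tunicamycin lowered it by -0.76 (SE 0.05, adjusted p = 9.4e-13) and Sal003 by -0.20 (SE 0.05, adjusted p = 0.0019). The Oligo libraries (251 to 262 CPM) and the Oli_ISR libraries (230 to 282 CPM) overlapped, and neither was called against IL-4/IL-13 (adjusted p = 0.091 and 0.13). For the Oligo libraries 4 of 11 settings gave a call, DESeq2 among them (adjusted p = 0.016), and for the Oli_ISR libraries DESeq2 (adjusted p = 0.044) and upper-quartile scaling (adjusted p = 0.032) did. The oppositely oriented gene Prdx2 shares 7.3% of the exon bases of Junb and held 2254 to 4282 reads per library.

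Jund, the JUN subunit gene usually described as constitutive (ENSMUSG00000071076, chr8:71151599-71153265), held the most JUN family mRNA in every group on a per-length scale. Naive libraries held 205, 286, 201 and 193 CPM, and IL-4/IL-13 libraries 505, 480, 476 and 512 CPM. The naive library of mouse 2 stood apart from the other 3. The log2 fold change was 1.16 (SE 0.08, adjusted p = 1.0e-11), and 1.32 without mouse 2. With tunicamycin the values were 203, 185, 197 and 185 CPM, which overlapped the naive range (log2 fold change -1.36 against IL-4/IL-13, SE 0.08, adjusted p = 1.8e-13). Sal003 libraries held 286 to 327 CPM, Oligo libraries 273 to 298 CPM and Oli_ISR libraries 337 to 388 CPM, all below the IL-4/IL-13 libraries. The log2 fold changes were -0.70 (adjusted p = 1.1e-07), -0.77 (adjusted p = 1.1e-08) and -0.47 (adjusted p = 3.4e-05), with SEs of 0.08. The Oligo libraries also lay below the Oli_ISR libraries without overlap (-0.30, SE 0.08, adjusted p = 0.0046). The opposite-strand gene Gm11175 covers 52.6% of the exon bases of Jund and held 35 to 107 reads per library, against 3469 to 9526 for Jund.

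**Figure D2:**
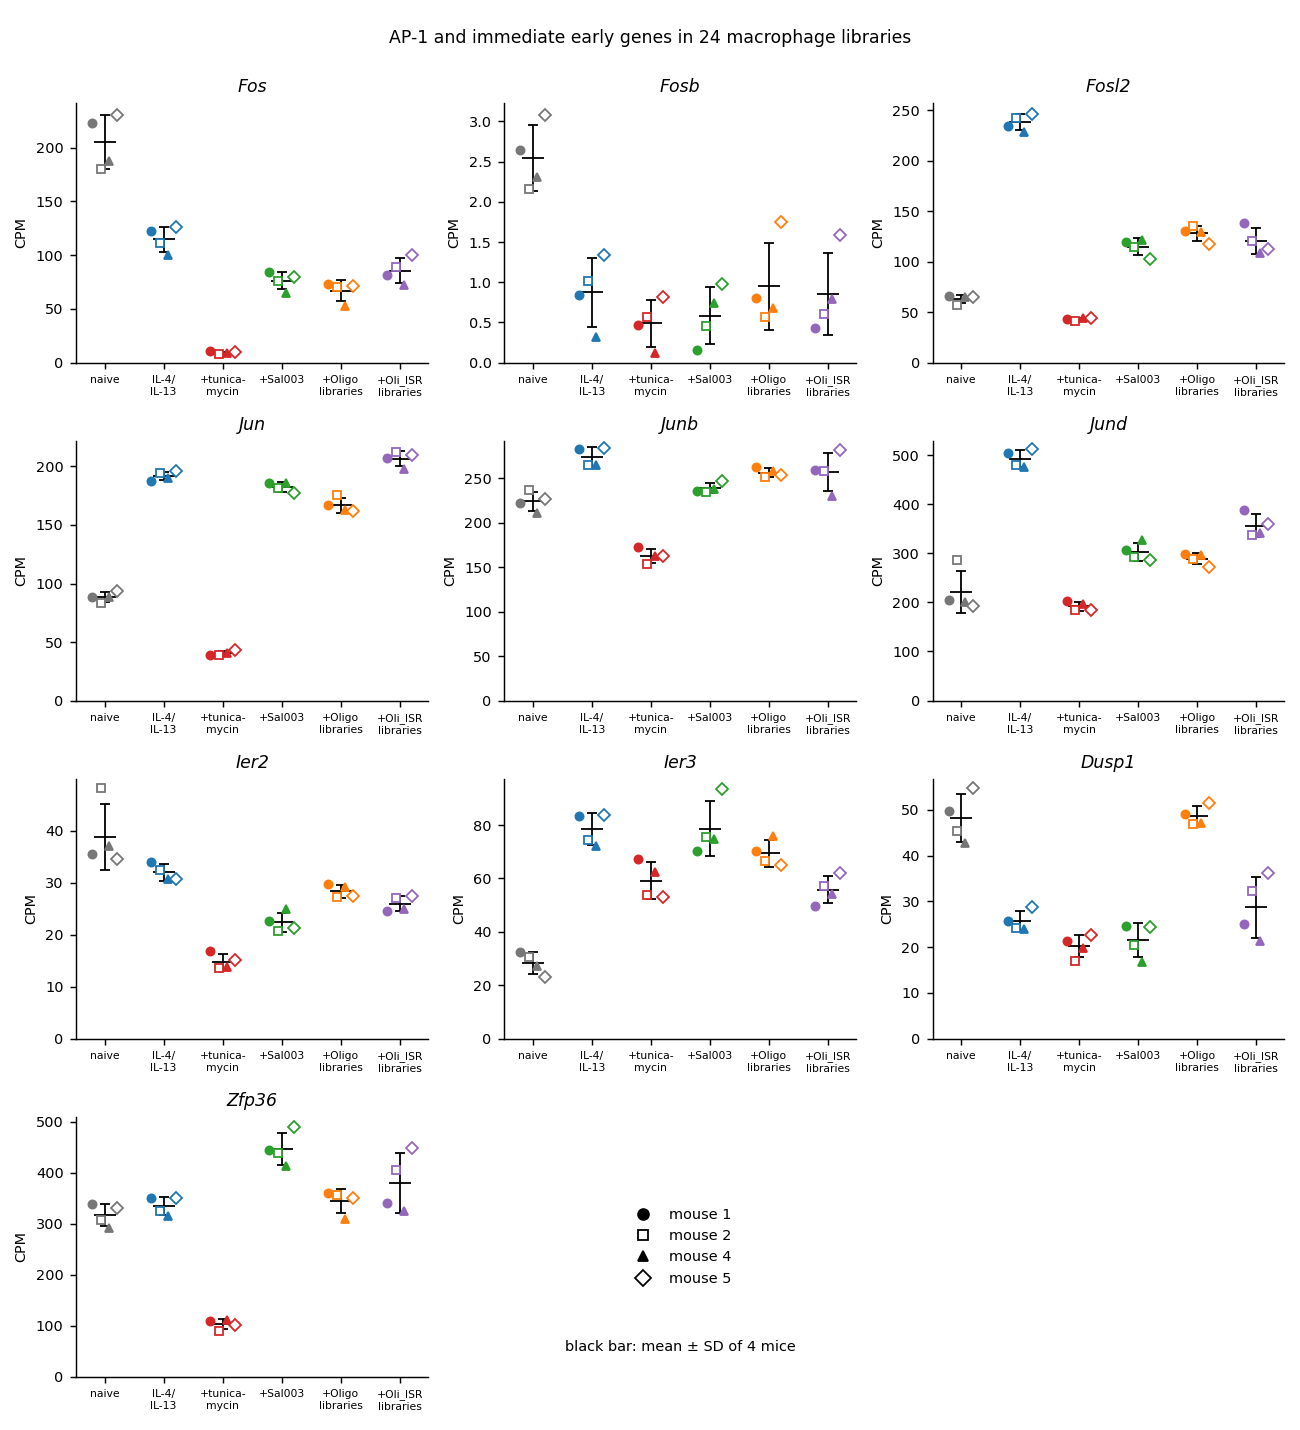
TMM-scaled CPM (y axis, from 0) of each of the 10 genes in the 6 groups (x axis), with 1 point per library, a marker shape per mouse, and black bars for the mean and SD of 4 mice. Tunicamycin libraries are lowest for 9 of the 10 genes by group mean, Ier3 being the exception. By group mean, Fos, Fosb and Ier2 peak in naive cells and the others under cytokines with or without an inhibitor. For Dusp1 that peak, 48.6 CPM in the Oligo libraries, is close to the naive mean of 48.2 CPM.

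Ier2, an early response gene with a nuclear product (ENSMUSG00000053560, chr8:85387960-85389483), fell slightly with the cytokines. Naive libraries held 34.6 to 48.2 CPM, the highest being mouse 2, and IL-4/IL-13 libraries 30.7 to 34 CPM. The log2 fold change was -0.28 (SE 0.08, adjusted p = 0.0057), and -0.17 (adjusted p = 0.047) without mouse 2. Tunicamycin lowered it to 13.5 to 16.9 CPM (log2 fold change -1.11, SE 0.09, adjusted p = 3.7e-11) and Sal003 to 20.8 to 24.9 CPM (-0.51, SE 0.09, adjusted p = 2.2e-05). The Oli_ISR libraries were lower as well (-0.30, SE 0.09, adjusted p = 0.0047), whereas the Oligo libraries were not called (-0.17, adjusted p = 0.076) although their 27.2 to 29.7 CPM lay below every IL-4/IL-13 library. The Oligo libraries were called in 4 of 11 settings, with adjusted p from 0.0039 when only those groups were fitted to 0.039 with the stricter filter, DESeq2 among them (0.037).

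Ier3, the early gene linked to cell survival (ENSMUSG00000003541, chr17:36132568-36133815), was lowest in naive cells, unlike the other 9 genes. Naive libraries held 32.5, 30.6, 27.2 and 23.1 CPM, and IL-4/IL-13 libraries 83.3, 74.6, 72 and 83.8 CPM, a 2.77-fold rise (log2 fold change 1.47, SE 0.10, adjusted p = 5.6e-12). It was also the only gene of the 10 to stay above the naive range with tunicamycin, at 67.3, 53.9, 62.3 and 53.2 CPM, although this was below IL-4/IL-13 alone (-0.41, SE 0.10, adjusted p = 6.3e-04). The Oli_ISR libraries, with 49.8 to 61.9 CPM, lay below IL-4/IL-13 libraries (-0.49, SE 0.10, adjusted p = 1.6e-04). Sal003 libraries ranged from 70.2 to 93.7 CPM around the IL-4/IL-13 mean of 78.4 CPM (adjusted p = 0.98). The Oligo libraries, at 65 to 76 CPM, were not called (-0.18, adjusted p = 0.12) except when only those groups were fitted (adjusted p = 0.011).

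Dusp1, the gene of the phosphatase that switches off p38 and JNK (ENSMUSG00000024190, chr17:26724564-26781102), fell with the cytokines and stood at its naive level in 1 of the oligomycin groups. Naive libraries held 49.8, 45.4, 42.7 and 54.8 CPM, and IL-4/IL-13 libraries 25.7, 24.2, 24 and 28.7 CPM. The fall was 1.88-fold (log2 fold change -0.91, SE 0.13, adjusted p = 9.0e-07). The Oligo libraries held 49, 46.8, 47.1 and 51.5 CPM, inside the naive range and above every IL-4/IL-13 library (log2 fold change 0.93, SE 0.13, adjusted p = 5.9e-07). It was the only gene of the 10 called higher there.

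The Oli_ISR libraries held less, 25, 32.2, 21.4 and 36.2 CPM, and overlapped the IL-4/IL-13 libraries (log2 fold change 0.17, adjusted p = 0.27). Mice 2 and 5 were above their own IL-4/IL-13 library there and mice 1 and 4 below it. The Oligo libraries exceeded the Oli_ISR libraries by 0.75 (SE 0.12, adjusted p = 2.6e-05), in 4 of 4 mice, by 0.51 to 1.14 within a mouse. Tunicamycin libraries held 17 to 22.6 CPM, and the call against IL-4/IL-13 (-0.35, SE 0.13, adjusted p = 0.023) was lost without mouse 1 (adjusted p = 0.078) or mouse 2 (adjusted p = 0.11). Sal003 libraries held 16.7 to 24.5 CPM and were not called (-0.25, adjusted p = 0.13), but were with mouse as a block (-0.25, adjusted p = 0.028). In order of level, tunicamycin, Sal003, IL-4/IL-13 and Oli_ISR libraries overlapped with their neighbours, and naive and Oligo libraries formed an upper pair.

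Zfp36, the gene of tristetraprolin (ENSMUSG00000044786, chr7:28076209-28079710), was the one gene of the 10 that IL-4/IL-13 left uncalled. Naive libraries held 339, 307, 292 and 331 CPM, and IL-4/IL-13 libraries 350, 324, 315 and 350 CPM (log2 fold change 0.08, SE 0.08, adjusted p = 0.45). Tunicamycin libraries held 109, 90.1, 111 and 101 CPM, a 3.26-fold fall (-1.70, SE 0.09, adjusted p = 3.8e-15). Sal003 moved it the other way, to 444, 439, 414 and 489 CPM, above every IL-4/IL-13 library (0.42, SE 0.08, adjusted p = 2.0e-04). It was the only gene of the 10 that Sal003 raised. The Oligo libraries (310 to 360 CPM) and the Oli_ISR libraries (324 to 449 CPM) overlapped the IL-4/IL-13 libraries and were not called (adjusted p = 0.69 and 0.072). The Oli_ISR libraries were called higher with mouse as a block (0.18, adjusted p = 0.037), with no filter (0.18, adjusted p = 0.046) and without mouse 4 (0.22, adjusted p = 0.032).

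Levels of different subunits were set side by side per exon length. For this the counts were divided by exon length, as merged from the annotation, and scaled to a common sum, as TPM. Merged exons (10397 bases for Fosl2, 2358 for Fos and 2381 for Junb) can be longer than the transcripts present. Shares and ratios between genes depend on these lengths. Fosl1, the fourth FOS family gene, was included in these sums and averaged 0.388 to 1.97 TPM. FOS family mRNA summed to 457 TPM ± 75.2 (SD, n = 4) in naive cells, of which Fos made up 92.6% ± 0.535 and Fosl2 6.5% ± 0.544. With IL-4/IL-13 the sum was 329 TPM ± 30, the Fos share 67.5% ± 1.87 and the Fosl2 share 32% ± 1.87. With tunicamycin the sum was 42.5 TPM ± 3.17, of which Fosl2 made up 50.6% ± 2.78 and Fos 46.8% ± 3.13, with overlapping ranges. Across the other 3 groups the sum was 196 to 223 TPM and the Fos share 69.1% to 75.3%.

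Per merged exon length, JUN family mRNA was more plentiful than FOS family mRNA in every library. It summed to 1229 TPM ± 75.2 in naive cells, 2155 TPM ± 96 with IL-4/IL-13 and 1014 TPM ± 45.4 with tunicamycin (SD, n = 4 each). Jund held the largest share in every group, from 51.8% in naive cells to 62.8% with IL-4/IL-13, and Jun the smallest, from 6.49% with tunicamycin to 16.9% with Sal003. The ratio of JUN to FOS family mRNA was 2.76 ± 0.593 in naive libraries (2.29 to 3.6), 6.57 ± 0.354 with IL-4/IL-13 (6.27 to 7.08) and 23.9 ± 1.15 with tunicamycin (22.5 to 24.9), and these ranges did not overlap. Sal003, Oligo and Oli_ISR libraries, at 7.83 ± 0.78, 8.2 ± 0.938 and 8.09 ± 0.686, all exceeded the IL-4/IL-13 range and overlapped each other. These are mRNA levels, and protein was not measured in these libraries.

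**Figure D3:**
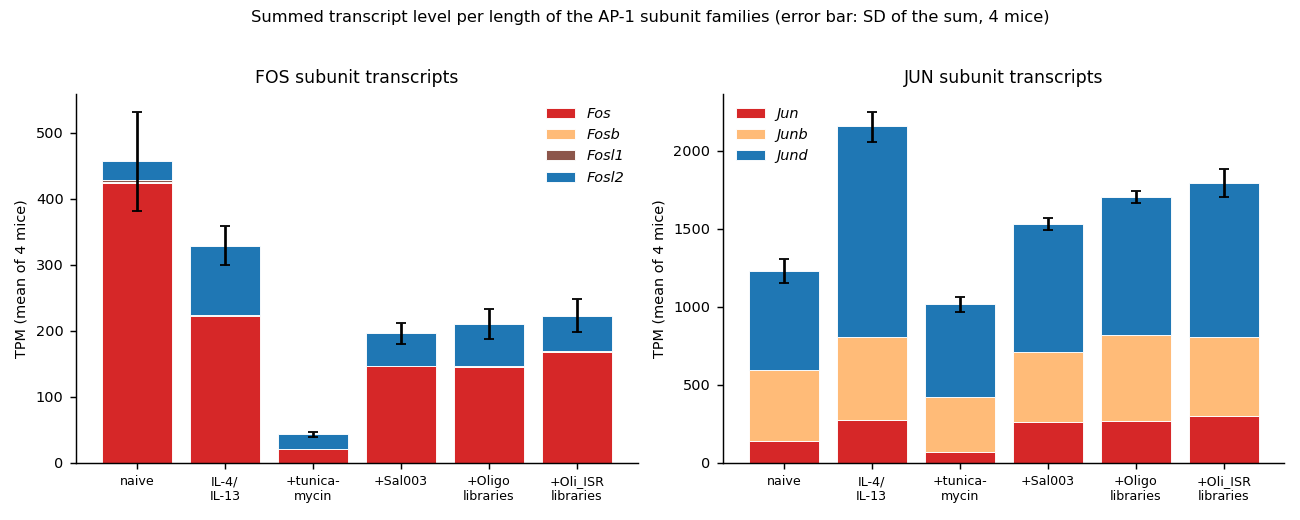
Summed level of FOS subunit transcripts (left) and JUN subunit transcripts (right) in TPM computed from the counts (y axes, from 0), stacked by gene as means of 4 mice, with the SD of the sum as error bar, in the 6 groups (x axis). The FOS column is 457 TPM in naive cells, 329 TPM with IL-4/IL-13 and 42.5 TPM with tunicamycin. The JUN column is 1229, 2155 and 1014 TPM in the same groups, and is also lowest with tunicamycin.

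The inhibitor groups were also set against naive cells, by the ranges of their libraries and without a test. With tunicamycin 8 genes lay below every naive library, Ier3 lay above and Jund overlapped, where 35.2% of all genes lay below and 32.8% above. With Sal003, Fosl2, Jun, Jund, Ier3 and Zfp36 lay above every naive library and Fos, Fosb, Ier2 and Dusp1 below (background 25.3% and 24.7%). The Oligo libraries had 4 genes above, Fosl2, Jun, Junb and Ier3, and 3 below, Fos, Fosb and Ier2 (30.7% and 29.6%). The Oli_ISR libraries had 4 above, Fosl2, Jun, Jund and Ier3, and 4 below, Fos, Fosb, Ier2 and Dusp1 (25.7% and 24.3%). Fos, Fosb and Ier2 were thus below the naive range in each of the 4 inhibitor groups, and Ier3 above it. The same held for IL-4/IL-13 libraries without an inhibitor, so this order was already present with the cytokines alone. The share of all genes with such an order in all 4 groups was not computed.

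Other AP-1 and related bZIP genes, 15 in number, moved both ways. IL-4/IL-13 raised 4 and lowered 4 of them, near the 30.1% and 30.4% of all genes. Tunicamycin raised 7 and lowered 7, little above the 38.7% and 37.6% of all genes. Sal003 gave 4 higher and 6 lower (25.9% and 24.6% of all genes). The Oligo libraries gave 6 and 5 (34% and 32.2%), and the Oli_ISR libraries 6 and 4 (27.9% and 26.4%). Batf3, a partner of JUN proteins known for its part in dendritic cells, behaved like Fosl2 with larger swings: 6.65 CPM in naive, 94.3 CPM in IL-4/IL-13 and 5.79 CPM in tunicamycin libraries (log2 fold changes 3.83 and -4.02). It fell under each of the other inhibitors too, with log2 fold changes of -1.36 with Sal003, -2.42 in the Oligo and -1.42 in the Oli_ISR libraries. Atf3, a stress-induced repressor, rose with the cytokines from 300 to 866 CPM (1.53). With tunicamycin, Batf, a JUN partner of lymphocytes and myeloid cells, rose from 6.13 to 69.2 CPM and Jdp2, a JUN-binding repressor, from 12.3 to 78.4 CPM. Maf, a bZIP factor of the large Maf class, fell with the cytokines from 869 to 95 CPM (-3.19). Each of these changes had an adjusted p of 1.2e-13 or less in edgeR's quasi-likelihood test.

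The 30 other immediate early and primary response genes were lowered more often than raised in every comparison with IL-4/IL-13 libraries. IL-4/IL-13 raised 10 and lowered 15 of them (30.1% and 30.4% of all genes), so that the 10 higher are near background. Tunicamycin raised 6 and lowered 21 (38.7% and 37.6% of all genes), with a median log2 fold change of -0.56. Sal003 gave 4 higher and 18 lower, the Oligo libraries 8 and 16, and the Oli_ISR libraries 8 and 15. The shares of all genes higher and lower were 25.9% and 24.6%, 34% and 32.2%, and 27.9% and 26.4% in the same order. The 8 higher in the Oli_ISR libraries are thus near background. Egr2, a zinc finger factor that IL-4 is known to induce, rose from 13.7 to 410 CPM with the cytokines (4.91) and fell to 3.5 CPM with tunicamycin (-6.88). Klf4 and Myc, regulators of growth and differentiation, rose with the cytokines from 19.9 to 189 CPM and from 8.28 to 63.2 CPM. Nfkbiz, a nuclear partner of NF-κB, went the other way: 127 CPM in naive, 7.05 CPM in IL-4/IL-13 and 327 CPM in tunicamycin libraries (-4.18 and 5.54). Ier5l and Klf2 fell with tunicamycin from 45.1 to 1.15 CPM and from 114 to 7.51 CPM. Btg2, an inhibitor of proliferation, fell in the Sal003, Oligo and Oli_ISR libraries to 49.6, 23.1 and 50.1 CPM from 127 CPM. Gadd45a, a stress-induced growth arrest gene, rose from 7.76 to 66.9 CPM in the Oligo and 19.8 CPM in the Oli_ISR libraries, a difference of 1.75 between those groups (SE 0.10, adjusted p = 8.7e-13).

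Genes of the MAP kinase pathway, which switches on the immediate early genes, and of its inhibitors were lowered more often than raised in every inhibitor group. The list mixes kinases and transcription factors with inhibitors of the pathway, the Dusp, Spry and Spred genes. The counts therefore give no direction for the activity of the pathway, which was not tested. Of 36 listed, 35 were tested, Dusp14 having too few counts. Tunicamycin raised 9 and lowered 18, Sal003 5 and 16, the Oligo libraries 6 and 16, and the Oli_ISR libraries 10 and 13, while IL-4/IL-13 raised 13 and lowered 13. The shares of all genes higher and lower were 38.7% and 37.6%, 25.9% and 24.6%, 34% and 32.2%, 27.9% and 26.4%, and 30.1% and 30.4% in the same order, so that the 10 higher in the Oli_ISR libraries are near background. Median log2 fold changes lay between -0.18 and -0.10 in the 6 comparisons. Among the phosphatase genes, Dusp5, which acts on ERK in the nucleus, fell from 11.4 CPM to 0.811 CPM with tunicamycin, 2.15 CPM with Sal003, 2.71 CPM in the Oligo and 3.58 CPM in the Oli_ISR libraries. Dusp6, its cytoplasmic counterpart, fell from 16.7 CPM to 5.37, 6.98, 5.36 and 7.48 CPM in the same order. Dusp4, another nuclear phosphatase, rose with the cytokines from 13.5 to 72.8 CPM, fell with tunicamycin to 7.06 CPM and rose to 153, 186 and 172 CPM with the other inhibitors. Map3k5, which encodes the stress kinase ASK1, rose from 18.5 to 67.4 CPM with tunicamycin (1.87).

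Of 23 genes often described as AP-1 targets or as mRNAs bound by ZFP36, 22 were tested and Csf2 was not. IL-4/IL-13 raised 5 and lowered 12 (30.1% and 30.4% of all genes), and tunicamycin raised 13 and lowered 7 (38.7% and 37.6% of all genes). Sal003 gave 6 higher and 7 lower (25.9% and 24.6% of all genes). The Oligo libraries gave 9 and 5 (34% and 32.2%), and the Oli_ISR libraries 7 and 7 (27.9% and 26.4%), none far from those shares. The median log2 fold change with tunicamycin was 0.60, while that of the 10 genes themselves was -1.24. The list mixes AP-1 targets with mRNAs bound by ZFP36. Its median therefore gives no direction for the activity of AP-1 or ZFP36, which was not tested. Il6, a cytokine, was at 0 to 2 reads per IL-4/IL-13 library and at 1670 to 2349 reads with tunicamycin (94.6 to 112 CPM), at 336 to 389 reads in the Oligo libraries and at 13 to 18 reads in the Oli_ISR libraries. Cxcl2, a neutrophil chemokine, rose from 3.39 to 114 CPM with tunicamycin. Mmp12, the macrophage elastase, rose from 73.3 to 1299 CPM with IL-4/IL-13 and fell to 7.08 CPM with tunicamycin, 249 CPM with Sal003, 216 CPM in the Oligo and 425 CPM in the Oli_ISR libraries. Ccnd1, the gene of cyclin D1, fell with tunicamycin from 194 to 2.11 CPM. Vegfa, a growth factor of vessels, rose from 43.8 CPM to 200 CPM in the Oligo and 157 CPM in the Oli_ISR libraries. Il1b and Il10, cytokines of opposite effect, both fell with IL-4/IL-13, from 15.7 to 0.502 CPM and from 10.6 to 0.624 CPM. The list holds inflammatory, protease and growth genes that did not move as 1 set.

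Beside genes of like level, Fos and Dusp1 had the widest spread between mice among the 10 genes. The SD of log2 CPM within groups was 0.18 for Fos, higher than in 97.6% of the 500 genes nearest to it in level, and 0.21 for Dusp1, higher than in 97.2%. The scarce Fosb had the largest SD of the 10, 0.73, which ranked at 95.2%. Jun, with 0.05, ranked at 16%. For Fos and for Dusp1, mouse 4 lay below the mean of its group in 6 of 6 groups and mouse 5 above it in 6 of 6. Over all genes, 5.56% showed the first pattern, 6.55% the second and 1.67% both. Fosb also was above the mean in 6 of 6 groups for mouse 5, by 0.75 on average. The mean log2 deviation of mouse 4 was -0.20 for Fos and -0.18 for Dusp1, and that of mouse 5 was 0.13 and 0.20. Summed stromal markers were lowest in mouse 5 in every group, at 18.4 CPM against 83 to 139 CPM in the other naive libraries. The part of those cells in the Fos and Dusp1 levels was not tested.

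**Figure D4:**
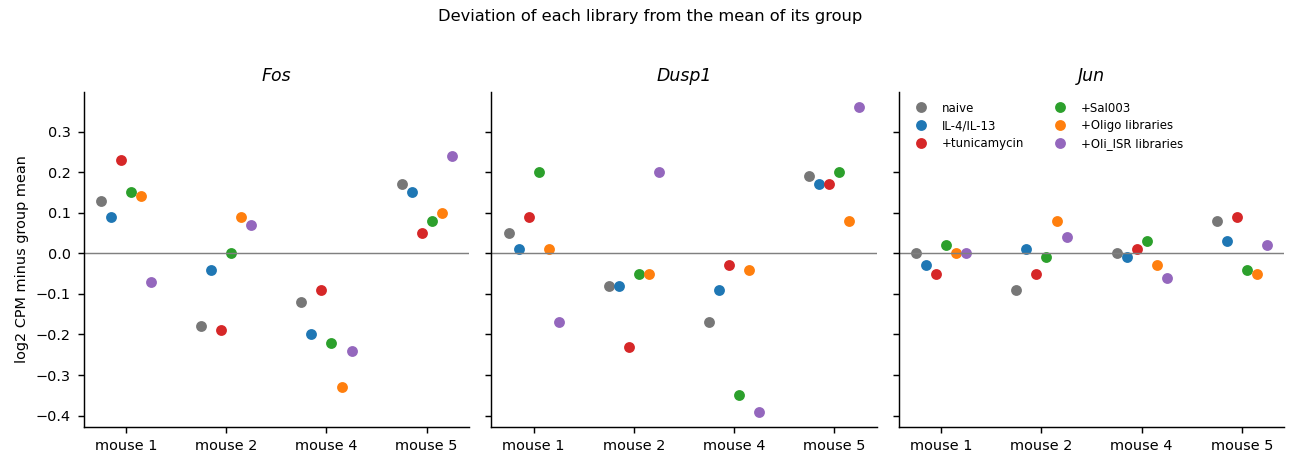
Deviation of each library's log2 CPM from the mean of its group (y axis) for Fos, Dusp1 and Jun, by mouse (x axis) and coloured by group. Fos and Dusp1 of mouse 4 lie below 0 and those of mouse 5 above 0 in all 6 groups, while Jun shows no such order.

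The genes whose pattern over the 24 libraries was most like each of the 10 were found by the root mean square difference of centred log2 CPM, among 10589 genes with at least 50 counts on average. Jun was closest to Sestd1, at 0.10, against an SD of Jun itself of 0.84, followed by Pcyox1l at 0.16. Fosl2 was closest to Septin9, at 0.21 (SD 0.79), and Zfp36 to Sat1, at 0.16 (SD 0.70). Fos was closest to Zfp36l1, a relative of Zfp36, at 0.38 (SD 1.40). Jund was closest to Uqcrc1, at 0.13 (SD 0.46), Junb to Suds3, at 0.09 (SD 0.26), and Ier3 to Bola3, at 0.20 (SD 0.52). Ier2 was closest to Stk38l, at 0.18 (SD 0.45), Dusp1 to Pdlim7, at 0.28 (SD 0.54), and Fosb to Nr1d1, at 0.46 (SD 0.98). Among the 10 genes themselves, Junb and Jund had the smallest difference, 0.29, but this is more than the SD of Junb itself (0.26). The measure is small for genes that vary little. Jun and Zfp36 differed by 0.36, which is less than the SD of either (0.84 and 0.70). This likeness is a description over libraries that share mice and treatments.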

How the data were processed

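RNA from 24 libraries of mouse BMDMs (6 groups of 4 mice) was measured by mRNA sequencing. Per the methods and labels, the authors prepared Watchmaker mRNA libraries, sequenced single reads on an Element Aviti, trimmed adapters (Cutadapt 1.8), dropped rRNA reads and reads of low complexity, mapped the rest with STAR 2.7 (GRCm39) and used HTSeq 0.9.1 to count them for each gene. The strand setting is not given in the sources used here. The deposited values used are these raw counts per gene. The deposited TPM table, from RSEM 1.2.31, was not used here, because its header names more columns than its lines hold. The 5 lines that name no gene (12.74% to 15.231% of a library's total) stayed out of library sizes and tests. Of 56884 gene identifiers, 56323 matched the annotation.

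Counts were tested with edgeR 4.0.16 in R 4.3.3: TMM scaling, the filterByExpr filter by group (13679 genes kept), and 1 quasi-likelihood model with a coefficient for each of the 6 groups, from which 6 comparisons were taken. Adjusted p values are Benjamini-Hochberg over all genes tested, called under 0.05, and also counted with a minimum of 2.5-fold. The SE is the log2 fold change divided by the root of F. The model was tested on simulated data with known changes but no mouse effect, so that test does not bear on the pairing by mouse. Log2 CPM used a prior count of 2. TPM from counts used merged exon lengths. Depth was 16238727 to 26725278 reads on genes. The SEs come from the model without the mouse, so they include the spread between mice although each mouse is in every group. Replicates differed beyond sampling noise (chi-square per gene 2.14 to 34.38). The groups came from the library names in the labels.

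The mouse number pairs the samples, since each mouse gave a culture to every group; deviations of libraries from their group means had a median correlation of 0.24 for the same mouse (56 of 60 pairs over 0.1) and -0.05 for different mice (7 of 180). The comparisons without the block are the ones reported, as the study's methods state none.

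The 10 genes, the 4 lists and the tests were chosen with earlier results of these data known. The genes of the lists named in the text are at most 4 for each list and comparison, those with the largest change among genes called, moved the same way in 4 of 4 mice and with a mean of at least 50 counts; 1 gene that met this rule is not reported here. Alternatives were upper-quartile scaling, RLE size factors, DESeq2 1.42.0, no filter, at least 10 counts in every library, only the groups compared, the mouse block, and leaving out each mouse.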

Additional observations from a re-analysis of the deposited data

Results flagged for a closer look

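Among the 60 sets of 4 libraries (10 genes in 6 groups), 3 held a library far from the other 3, by the gap to its nearest neighbour as a share of the range (Dixon's test at 95%). Chance sets about 1 in 20 such groups apart. Fos in the Oligo library of mouse 4 was at 53 CPM, and the other 3 lay between 70.7 and 73.1 CPM. Fosl2 in the naive library of mouse 2 was at 57 CPM, and the others lay between 64.8 and 65.8 CPM. Jund in the same naive library was at 286 CPM, and the others lay between 193 and 205 CPM.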

How the results depend on the processing

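Over the 60 log2 fold changes of the 10 genes and 11 alternatives, 654 values could be compared with those reported: 600 kept direction and side of the threshold, 15 lost a call, 18 gained one and 21 changed sign, and 43 of the 60 held under every alternative. No value that was called changed sign. Fosb gave no value where at least 10 counts were required in every library. The number of genes lower in the Oligo libraries than with IL-4/IL-13 was 7 when only those groups were fitted. The number higher in the Oli_ISR libraries than with IL-4/IL-13 was 0 with upper-quartile scaling, RLE size factors, at least 10 counts or only those groups, 2 with the mouse block, and 0 to 1 without single mice. The number higher in the Oligo than in the Oli_ISR libraries was 1 to 2 without single mice. Values near 0 changed sign as follows, none of them called. Ier3 under Sal003 was -0.03 with upper-quartile scaling, -0.01 with RLE or DESeq2, -0.02 with the stricter filter or only those groups, and -0.06 to 0.07 without single mice. Fosb in the Oli_ISR libraries was -0.02 with DESeq2, -5.5e-05 with upper-quartile scaling and -0.26 to 0.26 without single mice; in the paired fit, with the mouse as replicate block, it was -0.02. Fosb was -0.08 to 0.40 in the Oligo libraries and -0.05 to 0.17 between the oligomycin groups without single mice. Junb between the oligomycin groups was 0.03 with upper-quartile scaling, 2.2e-05 with no filter, 4.2e-04 with only those groups and -0.06 to 0.05 without single mice. Beyond Dusp1 under Sal003 and Zfp36 in the Oli_ISR libraries, the block changed no call. Of 528 counts over the 4 lists, 520 stayed within 1.5 times. The causes were not tested. Fosb, with 2 to 62 reads per library, is the gene whose values depth limits most.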
